A study of Mus musculus with 12 samples.

Results

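Cadherins and protocadherins are calcium-dependent adhesion proteins, and their mRNA levels were compared here in mouse cortex of 2 stages and 2 genotypes. Members were taken by symbol, as every gene named Cdh followed by a number and every gene whose name begins with Pcdh. The array carried 101 probe sets for 56 such genes. A gene counted as measured where a probe set exceeded a log2 value of 4 on at least 3 of the 12 arrays, and the brightest such probe set stood for the gene. By this rule 33 of the 56 genes were measured, among 11449 measured genes in all. The rule did not use genotype or stage.

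The adult groups were wild type and Qkf gt/gt male mice of strain 129/Sv, with 3 animals each and dorsal cerebral cortex as the tissue. Qkf is another name of Kat6b, a histone acetyltransferase gene, and gt/gt stands for a gene trap on both alleles. Adult wild types were 155, 112 and 101 days old, and adult mutants 155, 112 and 99 days. The embryonic groups were wild type and Qkf gt/gt dorsal telencephalon at E12.5, also strain 129/Sv and 3 arrays each, with no sex given. The labels place the first embryo of each genotype in one parental cross and the other 4 in a second cross. Whether each embryonic array holds 1 embryo was not stated. All adult arrays carry one array set name and the embryonic arrays carry others, so stage and array set cannot be told apart.

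Classical cadherins bind the same or a related cadherin on the neighbouring cell and are tied to actin through catenins. Type I members such as N-cadherin (Cdh2) hold the junctions of the embryonic neuroepithelium, whereas type II members mark layers, areas and circuits of the brain. Clustered protocadherins are made from gene arrays in which single neurons use different combinations of promoters, which lets a neuron tell its own branches from those of others. Non-clustered protocadherins of the delta1 and delta2 groups act in cell sorting, axon growth and synapse formation.

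The deposited values were log2 intensities, and a difference of 1 on this scale is a doubling of signal. Kat6b itself was lower in the libraries labelled mutant, by a log2 difference of -2.47 in adults and -4.31 in embryos (limma, adjusted p = 0.017 and 0.000191). Mean levels of the dorsal telencephalon markers were 10.7 to 11.2 in embryos and 5.66 to 5.91 in adults, and those of the adult cortical neuron markers were 10.3 to 10.7 in adults and 7.57 to 8.07 in embryos. Of the 7 adult cortical neuron markers 4 were called higher in wild type adults, Fezf2 and Neurod6 were lower by 1.89 and 1.47, and Tbr1, which is on both lists, was not called. Ttr, a choroid plexus marker, read 15.16 in the third adult mutant and 6.78 to 9.18 in the other adults. Myelin markers averaged 10.1 to 10.7 in adults and 3.74 to 4.22 in embryos. Markers of the ventral telencephalon ranged from 3.71 to 7.60 among the embryos, and this range is taken up below with the parental crosses. Bulk tissue was measured, so fewer cells of a type and less RNA per cell cannot be told apart.

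The plot of values on each array shows the 33 measured genes by subclass. Measured genes numbered 2 of 5 type I cadherins, 10 of 11 type II cadherins, 1 of 5 other cadherins, 3 of 4 delta1, 5 of 5 delta2 and 2 of 3 other non-clustered protocadherins. Of the clustered genes, 9 of 22 beta genes and the only gamma gene with a probe set of its own, Pcdhgc4, were measured. Alpha genes were represented only by probe sets that list several alpha genes. Levels depend on the probes, so the values below are set against each other within a gene and not between genes.

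**Figure D1:**
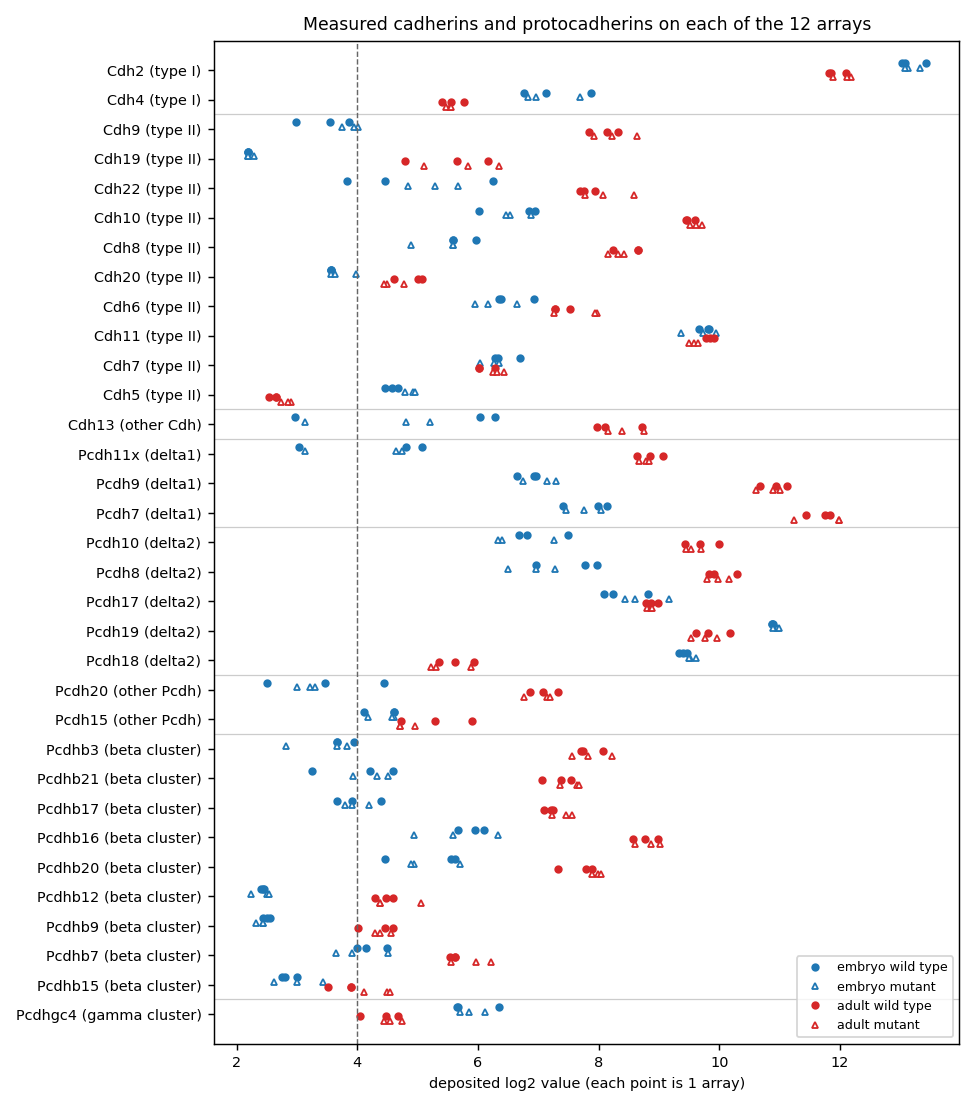
Deposited log2 values (horizontal axis) of the 33 measured cadherin and protocadherin genes, 1 row per gene in order of subclass and of the wild type stage difference. Each point is 1 array: blue for E12.5 dorsal telencephalon, red for adult cortex, filled circles for wild type and open triangles for Kat6b mutant. The dashed line is the measurement threshold of 4, and in most rows red and blue points lie apart while circles and triangles of one colour overlap.

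Of the 33 genes, 23 exceeded 4 on at least 3 arrays of both stages. A further 9 (Cdh9, Cdh19, Cdh20, Pcdh20, Pcdhb3, Pcdhb9, Pcdhb12, Pcdhb15 and Pcdhb17) did so on adult arrays alone, and 1 (Cdh5) on embryonic arrays alone. These 10 genes had to differ between the stages to be measured in this way, so counts over the 33 genes are given as a description. The 23 genes that were not measured were Cdh1, Cdh3, Cdh15, Cdh16, Cdh17, Cdh18, Cdh23, Cdh26, Pcdh1, Pcdh12 and the beta genes 1, 2, 4, 5, 6, 8, 10, 11, 13, 14, 18, 19 and 22. E-cadherin (Cdh1), the cadherin of epithelia outside the brain, had group means of 2.47 to 3.06. Pcdh12, a protocadherin of endothelium, had means of 2.20 in both adult groups and of 3.02 and 3.17 in wild type and mutant embryos.

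Wild type adult cortex was compared with wild type E12.5 dorsal telencephalon to describe how the family changes with development. Among the measured members 32 of 33 passed the test (limma over all genes, adjusted p under 0.05), 25 of them higher in adults and 7 lower. Over all genes 81.4% passed, 38.4% higher and 43% lower, so passing by itself did not set members apart. Without the measurement threshold, 24 of the 56 genes were higher and 7 lower, where 4465 of 18193 genes were higher (24.5%) and 4884 lower. The median log2 difference was 2.44 over the 33 measured members and -0.08 over all measured genes. Without the threshold it was 0.27 over the 56 members and 0 over all genes. The 7 lower members were Cdh2, Cdh4, Cdh5, Cdh7, Pcdh18, Pcdh19 and Pcdhgc4, and the member that did not pass was Cdh11.

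**Figure D2:**
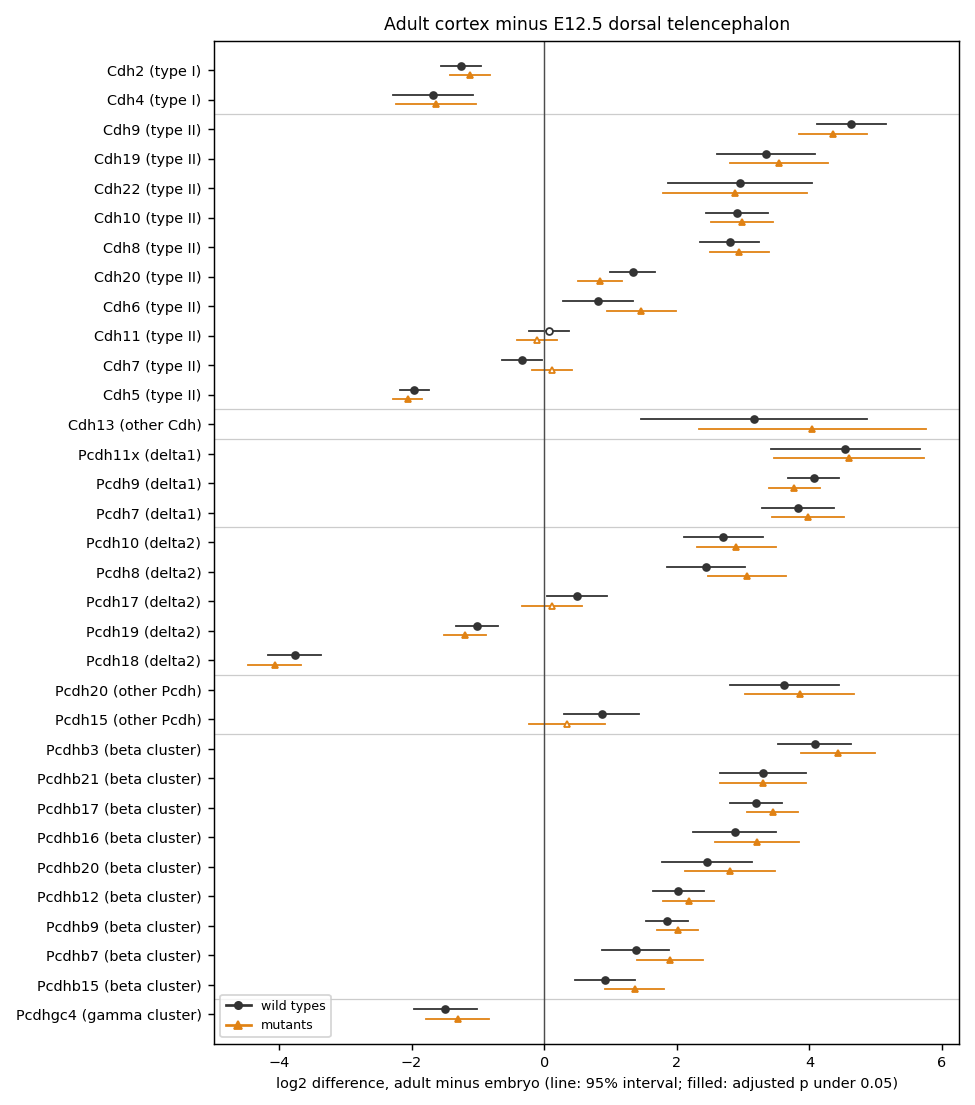
Log2 difference between adult cortex and E12.5 dorsal telencephalon (horizontal axis, above 0 when higher in adults) for each measured member, in wild types (dark circles) and in Kat6b mutants (orange triangles). Lines are 95% confidence intervals from the fit over all genes with 3 arrays per group, and filled symbols passed the test. Both type I cadherins, Cdh5, Pcdh18, Pcdh19 and Pcdhgc4 lie below 0 in both genotypes, and the delta1 and beta genes lie above 0.

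Both measured type I cadherins were lower in adults. N-cadherin (Cdh2), the main adhesion protein of neural progenitors, measured 13.41, 13.08 and 13.03 in wild type embryos and 11.82, 12.10 and 11.86 in wild type adults. The groups did not overlap, and Cdh2 fell by 1.25 on the log2 scale (95% interval -1.55 to -0.95, adjusted p = 4.66e-06). R-cadherin (Cdh4), which guides axons and marks brain subdivisions, measured 7.88, 7.13 and 6.77 in wild type embryos and 5.40, 5.77 and 5.55 in adults. It fell by 1.68 (-2.29 to -1.08, adjusted p = 0.000137), and its highest embryonic value came from the first cross. A second probe set gave a difference of -2.17 for Cdh2 and of -2.03 for Cdh4.

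Type II cadherins moved both ways, with 7 of 10 measured genes higher and 2 lower in adults. Over all genes 38.4% were called higher and 43% lower, and these shares apply to each subclass in this comparison. Only 6 of the 10 exceeded the threshold on enough arrays of both stages. Cdh9, Cdh19 and Cdh20 were measured through adult arrays alone and Cdh5 through embryonic arrays alone, so their directions were partly set by the threshold. Cdh9, a cadherin of synaptic specificity in hippocampus and retina, measured 3.54, 2.99 and 3.86 in wild type embryos and 8.13, 8.32 and 7.84 in adults. The fitted rise was 4.63 (4.12 to 5.15, adjusted p = 5.11e-09), but all its wild type embryonic values were under the threshold, so its size is set by values near background. Cdh19, a cadherin of the neural crest and glial lineages, sat at 2.19 in every wild type embryo, which is the lowest value in the deposited table, and measured 6.16, 4.80 and 5.65 in adults. Its fitted rise of 3.35 (2.61 to 4.08, adjusted p = 2.16e-06) was measured from that floor. The myelin markers rose between the same groups, with Mbp at a log2 difference of 10.71, all 7 measured genes of that list were higher in adults, and their part in the Cdh19 difference was not tested.

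Cdh10, which is found in layers and areas of the cortex, measured 6.02, 6.85 and 6.94 in wild type embryos and 9.60, 9.45 and 9.46 in adults, a rise of 2.90 (2.43 to 3.37, adjusted p = 1.39e-07). Cdh22 measured 6.25, 4.46 and 3.82 in wild type embryos and 7.69, 7.93 and 7.76 in adults. The adult values lay close together and the embryonic ones did not, and the rise of 2.95 had a wide interval (1.86 to 4.03, adjusted p = 0.000171). Cdh8, Cdh20 and Cdh6 rose by 2.80, 1.33 and 0.81, and Cdh6, a cadherin with area borders in the developing cortex, had the smallest of these differences (adjusted p = 0.0079). Cdh20 read 3.57 in every wild type embryo, a value at the bottom of its probe set's range, so its difference was measured from a floor.

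VE-cadherin (Cdh5), the cadherin of endothelial junctions, measured 4.58, 4.45 and 4.68 in wild type embryos and 2.65, 2.65 and 2.54 in adults, with no overlap. It fell by 1.96 (-2.17 to -1.74, adjusted p = 4.79e-09), and every adult value was under the threshold. Other endothelial and pericyte markers moved both ways. Cldn5, a tight junction protein of brain vessels, was higher in adults by 0.86, Slco1a4, a transporter of the blood-brain barrier, by 5.35, and Emcn, an endothelial sialomucin, was lower by 1.48. Of the 10 measured markers of this list 5 were higher and 3 lower in adults. Averaged over the 10, the wild type arrays ranged from 5.68 to 5.98 in embryos and from 6.97 to 7.23 in adults.

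Cdh11 and Cdh7 gave answers that depended on the probe set. Cdh11, a cadherin of mesenchyme and of neurons, measured 9.81, 9.83 and 9.66 in wild type embryos and 9.84, 9.91 and 9.78 in adults. The brightest probe set gave 0.07 (-0.23 to 0.37, adjusted p = 0.632), whereas its other measured probe set gave 2.03. Cdh7 measured 6.69, 6.28 and 6.33 in wild type embryos and 6.01, 6.01 and 6.28 in adults, so that the highest adult and the lowest embryonic value were nearly equal. It fell by 0.33 (adjusted p = 0.0413), another probe set gave -0.15 and the third gave 1.18. The mean of the Cdh7 probe sets gave 0.23 in the opposite direction (adjusted p = 0.0667). Cdh7 was at -0.21 without the first wild type embryo (adjusted p = 0.175), and the call was also lost without the first or second adult wild type or the first mutant embryo (adjusted p = 0.118, 0.117 and 0.0502). Of the 17 members with several measured probe sets, Cdh7 was the only one whose probe sets disagreed in sign in this comparison.

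T-cadherin (Cdh13), which lacks the transmembrane and cytoplasmic parts of other cadherins and is held by a lipid anchor, measured 2.97, 6.28 and 6.04 in wild type embryos and 7.96, 8.71 and 8.10 in adults. The first embryo lay far below the others, and the rise of 3.16 had the widest interval of the members (1.46 to 4.87, adjusted p = 0.00269). Without both embryos of the first cross the rise was 2.10.

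All 3 measured delta1 protocadherins were higher in adults by large amounts. Pcdh9 measured 6.96, 6.94 and 6.64 in wild type embryos and 10.93, 10.67 and 11.13 in adults. Pcdh7 measured 7.41, 8.14 and 7.98 in embryos and 11.75, 11.43 and 11.83 in adults. Pcdh11x, an X-linked gene, measured 3.04, 5.06 and 4.81 in embryos and 8.85, 8.63 and 9.06 in adults. No adult value came near an embryonic one in these 3 genes. The rises were 4.06 for Pcdh9 (3.68 to 4.45, adjusted p = 1.34e-09), 3.83 for Pcdh7 (3.28 to 4.37, adjusted p = 4.75e-08) and 4.54 for Pcdh11x (3.42 to 5.67, adjusted p = 6.13e-06). Other probe sets of these genes also rose, by 2.43 for Pcdh9, 1.49 for Pcdh7 and 3.68 for Pcdh11x.

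The 5 delta2 protocadherins split, with 3 higher and 2 lower in adults. Pcdh18 measured 9.46, 9.34 and 9.40 in wild type embryos and 5.63, 5.94 and 5.36 in adults. It fell by 3.76 (-4.16 to -3.36, adjusted p = 3.58e-09), the largest fall among the members. Pcdh19, an X-linked gene whose human form is mutated in an epilepsy of girls, measured 10.87, 10.88 and 10.87 in wild type embryos and 9.81, 10.17 and 9.61 in adults. The embryonic values were nearly identical, and Pcdh19 fell by 1.01 (-1.33 to -0.69, adjusted p = 5.12e-05), with its other probe sets at -1.86 and -1.62. Pcdh10, also known as OL-protocadherin, rose by 2.70, from 7.49, 6.68 and 6.81 to 9.68, 9.43 and 9.99 (2.11 to 3.30, adjusted p = 2.15e-06). All 6 measured probe sets of Pcdh10 rose, by 1.69 to 3.24. Pcdh8, also known as arcadlin, an activity-regulated protein of synapses, rose by 2.44, from 7.97, 7.78 and 6.95 to 9.83, 10.29 and 9.91 (1.85 to 3.03, adjusted p = 4.8e-06). Pcdh17, a synaptic protocadherin of corticobasal circuits, measured 8.81, 8.09 and 8.23 in embryos and 8.78, 8.97 and 8.86 in adults, so the groups overlapped. Its difference of 0.49 was just past the threshold (adjusted p = 0.0435) and was not past it in 11 of 24 alternatives. These include leaving out any 1 adult, or the second wild type, the third wild type or the second mutant embryo, with values of 0.35 to 0.54.

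Of the other non-clustered genes, Pcdh20 measured 4.45, 3.46 and 2.50 in wild type embryos and 7.08, 6.87 and 7.33 in adults. It rose by 3.62 (2.80 to 4.44, adjusted p = 2.71e-06). Pcdh15, a protein of the hair-cell tip link of the inner ear, measured 4.11, 4.61 and 4.61 in embryos and 4.73, 5.90 and 5.29 in adults. Its difference was 0.87 (0.30 to 1.44, adjusted p = 0.00892), with the adult values spread over more than a log2 unit, and it was 0.57 without the second adult wild type.

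The 9 measured beta protocadherins were all higher in adults, by 0.91 (Pcdhb15) to 4.08 (Pcdhb3), where 38.4% of all genes were called higher. Only 4 of the 9 exceeded the threshold on enough arrays of both stages. The others were measured through adult arrays alone and so had to be higher there. Pcdhb3 measured 3.66, 3.67 and 3.95 in wild type embryos and 8.08, 7.71 and 7.73 in adults (3.52 to 4.63, adjusted p = 3.13e-08). Pcdhb21 measured 3.24, 4.59 and 4.21 in embryos and 7.54, 7.05 and 7.37 in adults, a rise of 3.30. Pcdhb17 measured 3.66, 3.91 and 4.39 in embryos and 7.24, 7.22 and 7.10 in adults, a rise of 3.20. The stages did not overlap in these genes, but Pcdhb3 and Pcdhb17 were measured through adult arrays alone, so their separation was partly set by the threshold. All wild type embryonic values of Pcdhb3 were under the threshold, so the size of its rise is set by values near background. Pcdhb16 rose by 2.87, from 5.66, 6.10 and 5.95 to 8.77, 8.57 and 8.98, and was over the threshold on every array of both stages, as was Pcdhb20, which rose by 2.46. Of all 22 beta genes on the array without the threshold, 9 were called higher, none was called lower, and the median difference was 0.27. Over all 18193 genes without the threshold 24.5% were called higher, 4884 genes were called lower, and the median was 0. Beta genes are close copies of each other, and their probe sets could share signal.

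The alpha cluster was seen through 6 probe sets that each list 9 or 14 alpha genes, and 3 of these, listing 14 genes each, passed the threshold. The brightest alpha probe set read 6.64, 7.93 and 7.22 in wild type embryos and 11.14, 11.07 and 11.06 in adults. The 3 probe sets rose by 3.83, 4.49 and 3.98 in wild types (limma over probe sets, adjusted p = 1.16e-07, 2.49e-07 and 1.1e-07), where 34.6% of 23904 probe sets were called higher. The third of these probe sets read 4.23, 3.54 and 3.20 in wild type embryos. It was measured through adult arrays alone, so its rise of 3.98 was partly set by the threshold and starts near background. The 3 probe sets cannot be assigned to a single alpha gene. The only measured gamma gene went the other way. Pcdhgc4, a constant-type isoform at the end of the gamma cluster that is known for its role in neuron survival, measured 5.67, 6.36 and 5.65 in wild type embryos and 4.05, 4.48 and 4.68 in adults. It fell by 1.49 (-1.96 to -1.02, adjusted p = 5.03e-05).

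Regions upstream of the start site are shown for 4 members, 2 whose transcripts rose and 2 whose transcripts fell between the stages. Promoters of the protocadherin clusters and of Cdh2 were left out, and the RefSeq set used here held 16 of the 33 measured members. Among those with a single start site in it, the 2 with the largest rise and the 2 with the largest fall were taken. The fall of Pcdh19, at 1.01, was smaller than that of several measured members outside this set. Each sequence is the 250 bases before the start, written 5′ to 3′ on the gene's strand in GRCm38.p6, and capitals mark CG dinucleotides, the sites of DNA methylation. Cdh9 lies at chr15:16728665-16728914 on the plus strand, Pcdh7 at chr5:57717831-57718080 on the plus strand, Pcdh18 at chr3:49757317-49757566 on the minus strand and Pcdh19 at chrX:133688994-133689243 on the minus strand.
Cdh9: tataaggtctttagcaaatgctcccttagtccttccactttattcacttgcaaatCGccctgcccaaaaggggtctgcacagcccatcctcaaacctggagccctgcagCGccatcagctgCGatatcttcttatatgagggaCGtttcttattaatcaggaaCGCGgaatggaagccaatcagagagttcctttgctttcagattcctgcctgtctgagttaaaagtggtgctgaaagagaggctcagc
Pcdh7: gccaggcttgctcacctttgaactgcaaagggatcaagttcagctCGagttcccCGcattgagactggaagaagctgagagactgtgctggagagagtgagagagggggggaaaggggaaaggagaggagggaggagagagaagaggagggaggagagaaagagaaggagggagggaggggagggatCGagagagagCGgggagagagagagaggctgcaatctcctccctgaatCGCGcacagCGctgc
Pcdh18: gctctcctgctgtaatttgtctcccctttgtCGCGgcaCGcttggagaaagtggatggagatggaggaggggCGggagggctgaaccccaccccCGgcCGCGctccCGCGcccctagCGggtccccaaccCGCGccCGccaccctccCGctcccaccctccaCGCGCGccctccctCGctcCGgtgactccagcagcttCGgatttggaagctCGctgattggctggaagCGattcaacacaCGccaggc
Pcdh19: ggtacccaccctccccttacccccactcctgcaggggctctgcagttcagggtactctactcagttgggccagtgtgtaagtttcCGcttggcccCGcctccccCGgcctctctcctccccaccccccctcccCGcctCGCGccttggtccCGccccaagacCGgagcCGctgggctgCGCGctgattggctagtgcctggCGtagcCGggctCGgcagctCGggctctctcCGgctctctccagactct

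Cdh9 and Pcdh7, which rose, held 6 and 7 CG dinucleotides in this window, and Pcdh18 and Pcdh19, which fell, held 23 and 16. Over 32851 mouse promoter windows of the same length the median was 6, with quartiles of 2 and 16. Other members that rose did not share a low number: Cdh22 had 30 and Pcdh10 had 22, while Cdh10 had 2. The motif CCAAT, on either strand, occurred once in Cdh9, Pcdh18 and Pcdh19 and not in Pcdh7, and 33.8% of all windows held it. The motif GGGCGG, which contains a CG, occurred once in Pcdh18 and in Pcdh19 on either strand, and 32.7% of windows held it. The motif CANNTG, which reads the same on both strands, occurred 3 times in Cdh9 and once in Pcdh19, and 66.2% of windows held it. None of the 4 windows held TATAAA, which 12.4% of windows held. These matches describe the letters and were not tested against the expression values.

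The same comparison in mutants gave values close to those of wild types for most members. In mutants 29 of the 33 measured members passed, 23 higher and 6 lower, where 81.7% of all genes passed, 39.5% higher and 42.2% lower. The 4 that did not pass were Cdh11, Cdh7, Pcdh15 and Pcdh17, with differences of -0.11, 0.11, 0.34 and 0.11. Cdh9, Pcdh11x and Pcdhb3 rose by 4.35, 4.59 and 4.43 in mutants, and Pcdh18 fell by 4.07. Whether the stage difference itself depended on genotype was tested as the difference between the stages in the mutant effect. By that test 0 of the 33 members and 0% of all genes were called (limma). Members with an unadjusted p under 0.05 were 2 of 33, Cdh7 with 0.45 and Cdh20 with -0.49 (adjusted p = 0.881 for both), where 5.5% of all genes had such a p. Next came Cdh6 with 0.66 (-0.08 to 1.39) and Pcdh8 with 0.62 (-0.21 to 1.45), which was 0.41 without the third mutant embryo.

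The effect of the Kat6b gene trap was then read within each stage. No member was called in adult cortex or in E12.5 dorsal telencephalon (limma, 0 of 33 in each), where 0.0524% of all genes were called in adults and 0.0349% in embryos. At an unadjusted p under 0.05 there were 2 of 33 members in adults, against 4.54% of all genes, and 2 of 33 in embryos, against 4.51%. Both shares are close to the background. Without the threshold none of the 56 genes was called in either stage. Intervals for single members were wide, and Cdh13 in embryos could lie anywhere from -2.42 to 0.99, so these data do not show that members are equal between the genotypes.

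**Figure D3:**
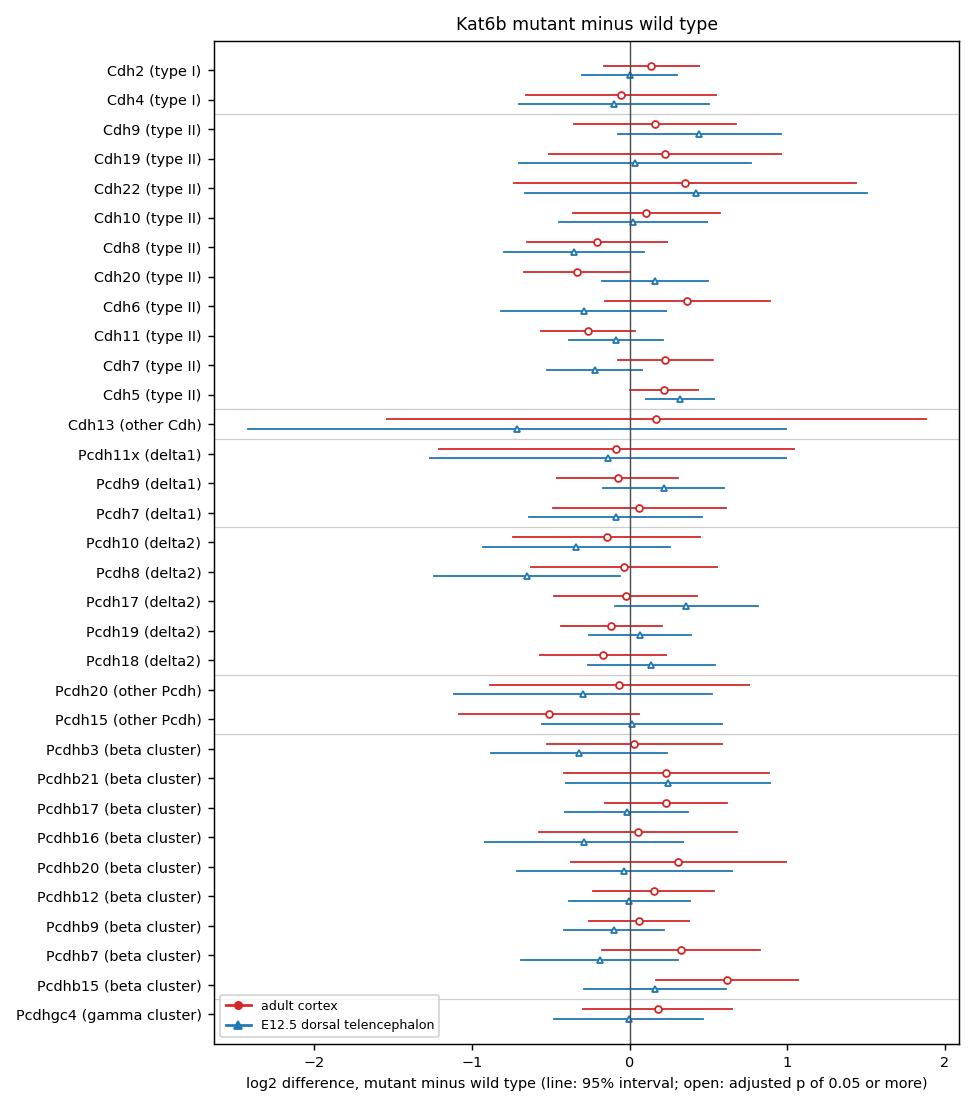
Log2 difference between Kat6b mutant and wild type (horizontal axis, above 0 when higher in mutants) for each measured member in adult cortex (red circles) and E12.5 dorsal telencephalon (blue triangles). Lines are 95% confidence intervals with 3 arrays per group, and open symbols did not pass the test, which is every symbol here. Pcdhb15 in adults, Pcdh8 in embryos and Cdh5 in both stages have intervals that leave out 0 before adjustment.

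The lowest p in adults belonged to Pcdhb15, with 3.90, 3.51 and 3.90 in wild types and 4.10, 4.49 and 4.55 in mutants. All mutants lay above all wild types, and the difference was 0.61 (0.16 to 1.06, unadjusted p = 0.012, adjusted p = 1). Its measured values over the threshold were those of the 3 adult mutants, so Pcdhb15 was measured at all only because of the group in which it was high. Its probe set is also of a kind that can match several transcripts. Cdh5 in adults measured 2.65, 2.65 and 2.54 in wild types and 2.73, 2.90 and 2.86 in mutants, a difference of 0.22 (unadjusted p = 0.0485, adjusted p = 1) with every value under the threshold. Over the 10 measured endothelial and pericyte markers the adult means were 6.97 to 7.23 in wild types and 7.27 to 7.36 in mutants, with Tek higher in mutants by 0.33 and Pdgfrb by 0.40 and neither called. Pecam1, which defines endothelium, sat at its lowest value of 4.19 on every adult array, and the part of these markers in the Cdh5 value was not tested. Next in order were Cdh20 with -0.33 and Pcdh15 with -0.51, and neither passed. Cdh20 measured 5.01, 5.07 and 4.61 in wild types and 4.49, 4.77 and 4.44 in mutants, which overlapped. Pcdh15 measured 4.73, 5.90 and 5.29 in wild types and 4.71, 4.72 and 4.96 in mutants, and its difference was smallest, -0.22, without the second adult wild type.

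All 9 measured beta genes had higher means in adult mutants than in adult wild types, with a median difference of 0.23 and none called. Pcdhb15 is among the 9 and passed the threshold only through the adult mutants, so its positive sign was set by the threshold. The count, the median and the averages over the 9 genes include it and are given as a description. The median over all genes was 0.03, and 58.7% of all genes had a positive value. Without the threshold 11 of the 22 beta genes were positive and 5 negative. Averaged over the 9 genes, adult wild types stood at 6.45, 6.15 and 6.38 and adult mutants at 6.71, 6.56 and 6.38, so the groups overlapped. The sign also turned in at least 1 alternative for Pcdhb3, Pcdhb9, Pcdhb12 and Pcdhb16. The actin control probe sets, which compare the 3′ end of a transcript with its 5′ end, gave 1.91 and 1.47 in the first and second adult mutants and 1.06 to 1.13 in the other 4 adults, and the part of this in the beta values was not tested.

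In embryos the lowest p belonged to Cdh5, with 4.58, 4.45 and 4.68 in wild types and 4.92, 4.96 and 4.79 in mutants. Every mutant lay above every wild type, and the difference was 0.32 (0.10 to 0.53, unadjusted p = 0.00753, adjusted p = 0.626). The difference was 0.34 between the pair of the first cross and 0.31 within the second cross. Pecam1, another junction protein of endothelium, was higher in mutant embryos by 0.73 (unadjusted p = 0.000108, adjusted p = 0.115). Its wild type embryos read 4.19, 4.19 and 4.43, of which the first pair equal the lowest value of this probe set, so the difference is measured from a floor. Cldn5 and Tek differed by 0.03 and 0.04 in embryos. Over the 10 endothelial and pericyte markers the means were 5.68 to 5.98 in wild type embryos and 5.84 to 6.11 in mutant embryos. Their part in the Cdh5 value was not tested.

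Pcdh8 in embryos measured 7.97, 7.78 and 6.95 in wild types and 7.28, 6.97 and 6.50 in mutants, which overlapped. Its difference was -0.65 (-1.24 to -0.06, unadjusted p = 0.0329, adjusted p = 1). It was -0.69 between the pair of the first cross and -0.63 within the second cross, and a second probe set gave -0.52. Cdh9 with 0.44 and Cdh8 with -0.35 followed and did not pass. Cdh9 was at 0.21 without the second wild type embryo, and Cdh8 at -0.12 without the first mutant embryo. The Cdh9 values of 3.54, 2.99 and 3.86 in wild types and 4.02, 3.94 and 3.75 in mutants overlapped, and those of Cdh8 did so too, with 5.59, 5.58 and 5.96 against 4.89, 5.59 and 5.59. Within the second cross alone Cdh13 was lower in mutants by a log2 difference of -1.15 (unadjusted p = 0.0022, adjusted p = 0.211) and Cdh22 higher by 0.92 (unadjusted p = 0.0102, adjusted p = 0.411). Between the pair of the first cross Cdh13 differed by 0.17 and Cdh22 by -0.57, so neither kept its sign across the crosses.

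Several members differed between the parental crosses of the embryos. This comparison was added after the values had been seen, and set the 2 embryos of the first cross against the 4 of the second with genotype in the model. It called 7 of 33 members, 4 higher and 3 lower in the first cross, where 4.45% of all genes were called, 196 higher and 314 lower. One wild type and one mutant make up the first cross, and the mutant one carries an array set name of its own, so cross and array set cannot be told apart in full. Without the first wild type embryo the count was 2 (Cdh13 and Pcdh11x).

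**Figure D4:**
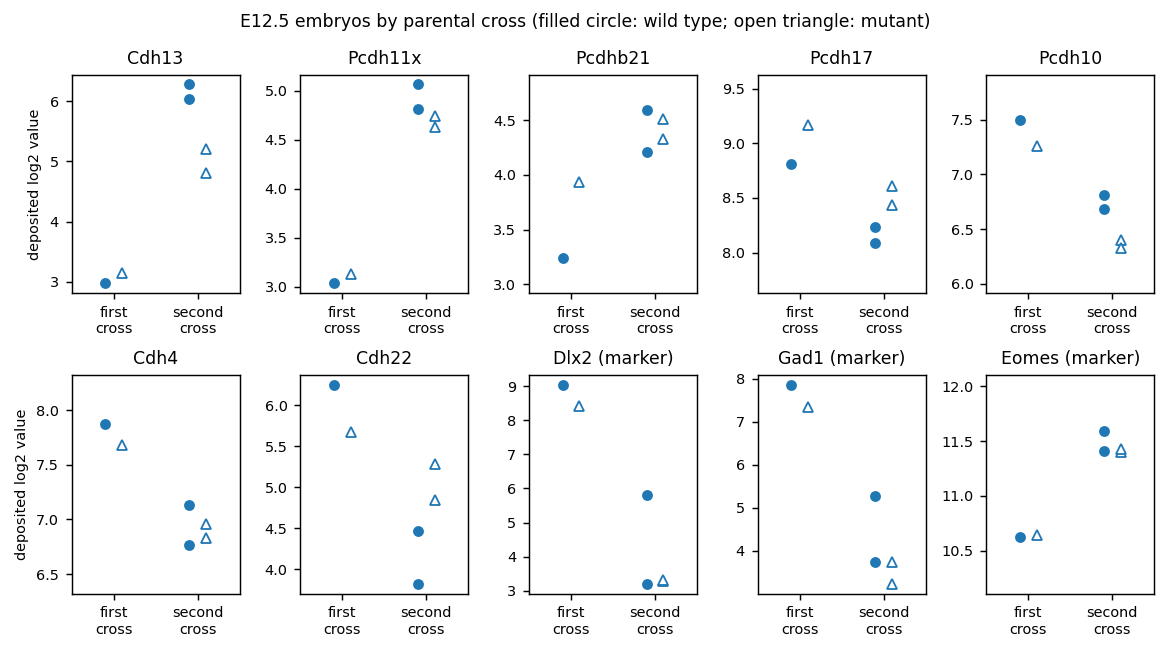
Deposited log2 values (vertical axis, a separate scale in each panel) of E12.5 embryos by parental cross, for the 7 members called between the crosses and 3 marker genes. Each point is 1 array, filled circles are wild type and open triangles mutant. The 2 embryos of the first cross lie outside the range of the 4 embryos of the second cross in every panel.

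In the first cross Cdh13 measured 2.97 and 3.14, against 6.28, 5.20, 6.04 and 4.81 in the second. Its difference was -2.53 (-3.21 to -1.85, adjusted p = 0.001), and its 2 other probe sets gave -1.25 and -0.82. Pcdh11x measured 3.04 and 3.13 in the first cross and 5.06, 4.74, 4.81 and 4.63 in the second. Its brightest probe set gave -1.73 (adjusted p = 9.56e-05), whereas its other probe set gave 0.42, so the direction depended on the probe set. Pcdhb21 was the third lower gene, with -0.82 (adjusted p = 0.0394) and a second probe set at -0.24. It was -0.49 without the first wild type embryo (adjusted p = 0.499), and its call was lost with no threshold (adjusted p = 0.11) and on averaging its probe sets (adjusted p = 0.279). Its call was also lost without the second wild type, the third wild type or the third mutant embryo (adjusted p = 0.076, 0.071 and 0.0668).

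The 4 members higher in the first cross were Pcdh17, Cdh4, Pcdh10 and Cdh22. Pcdh17 measured 8.81 and 9.16 in the first cross and 8.09, 8.61, 8.23 and 8.44 in the second, a difference of 0.64 (0.42 to 0.87, adjusted p = 0.00428), with 0.90 from its other probe set. Cdh4 differed by 0.86 (0.56 to 1.15, adjusted p = 0.00443) and by 0.50 on its other probe set. Pcdh10 differed by 0.82 (0.49 to 1.15, adjusted p = 0.0107), and its 6 probe sets ranged from 0.04 to 0.97. Cdh22 had 6.25 and 5.68 in the first cross and 4.46, 5.28, 3.82 and 4.84 in the second, a difference of 1.36 (0.62 to 2.10, adjusted p = 0.047). It was 0.61 without the first wild type embryo (adjusted p = 0.583) and 2.11 without the first mutant embryo, and the call was also lost with no threshold (adjusted p = 0.148) and with arrays centred on their median (adjusted p = 0.0513). Without the first wild type embryo Pcdh17, Cdh4 and Pcdh10 were at 0.64, 0.79 and 0.89 and no longer called (adjusted p = 0.0788, 0.0997 and 0.093). Without the first mutant embryo Pcdh17 and Pcdh10 were no longer called (adjusted p = 0.0504 and 0.126). On averaging its probe sets Cdh4 was not called either (adjusted p = 0.0668). Cdh22 also lost its call without the second wild type, the third wild type or the third mutant embryo (adjusted p = 0.0815, 0.085 and 0.0807).

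Markers of several tissues differed between the same embryos, among them those of the ventral telencephalon, the neighbouring territory that makes inhibitory neurons. Dlx2, a transcription factor of that territory, measured 9.04 and 8.43 in the first cross and 5.80, 3.28, 3.20 and 3.31 in the second. The difference was 4.84 for Dlx2, 5.04 for Dlx1, 2.08 for Dlx5, 3.61 for Gad1 and 3.83 for Gad2, and -0.06 for Lhx6, so that 5 of the 6 measured genes of the list were higher in the first cross by the test. The mean over these 6 markers was 7.60 and 7.21 in the first cross and, in the second, 5.37, 3.91, 3.71 and 3.75. Eomes and Neurog2, which mark dorsal progenitors and their daughters, were lower by 0.83 and 0.95 in the first cross. They were the only ones called of 7 dorsal markers. Emx1, Pax6 and Lhx2 stood at -0.56, -0.26 and -0.19 and Emx2 and Tbr1 at 0.31 and 0.07, and these did not pass. Some markers of other tissues also separated the crosses and others did not. Ttr, a transport protein made by choroid plexus, read 10.78 in both embryos of the first cross and 13.83, 13.53, 13.85 and 14.06 in the second. The mean over the 7 measured markers of cortical hem and choroid plexus overlapped, with 6.70 and 6.22 against 7.02, 6.31, 6.80 and 7.31. Rspo2 of that list went the other way from Ttr, with 9.66 and 8.43 against 8.02, 8.06, 8.28 and 8.42. The mean of the meningeal fibroblast markers was 5.89 and 6.44 against 7.02 to 7.41. The part of these markers in the member differences was not tested. Xist, which marks embryos with 2 X chromosomes, was at 13.1 in the first and second wild type embryos and at 12.7 in the third mutant embryo, and at 2.19 in the others, so each cross held embryos of both kinds. For the X-linked Pcdh11x and Pcdh19, the values of both kinds of embryo overlapped.

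Genes that work with cadherins were taken from lists of catenins, other cadherin superfamily members, junction partners, processing and signalling proteins, and regulators of the protocadherin clusters. Of the 8 measured catenins, which link cadherins to actin, 4 were higher and 4 lower in wild type adults, where 38.4% of all genes were higher and 43% lower. Arvcf, a p120-type catenin, fell by 2.93, alpha-E-catenin (Ctnna1) fell by 2.06, and beta-catenin (Ctnnb1) fell by 0.76. The neuronal delta-catenin (Ctnnd2) rose by 2.11, and Pkp4 and the neuronal alpha-N-catenin (Ctnna2) rose by 1.35 and 1.42. The alpha catenins thus moved in opposite directions between the stages.

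Other cadherin superfamily members numbered 12 measured of 21, with 6 higher and 4 lower in wild type adults, against the same 38.4% and 43% of all genes. The calsyntenins, which organise synapses, rose by 3.51 (Clstn1), 5.53 (Clstn2) and 3.75 (Clstn3). Clstn3 read 4.87 in every wild type embryo, the lowest value of its probe set here, so its rise was measured from a floor. Celsr1 had the largest fall of this list, at -6.09, with wild type adults at 4.17, 3.84 and 3.84. Fat4, an atypical cadherin of planar polarity and growth control, fell by 3.88. Among 10 measured junction partners 1 was higher and 5 lower, a smaller share than the 81.4% called among all genes, with Nectin2 at -2.41, Lin7c at -0.72, Afdn at -0.70 and Nectin3 at -0.87. Among 12 measured processing and signalling genes 7 were higher and 1 lower, where 38.4% and 43% of all genes were. Ptk2b, a kinase that gamma protocadherins inhibit, measured 9.96, 10.19 and 10.51 in wild type adults and sat at 2.19, the floor of the deposited table, in every embryo. Cyfip2, Nckap1 and Wasf1 of the WAVE complex, which binds delta2 protocadherins, rose by 3.84, 1.65 and 1.68. All 14 regulators of the protocadherin clusters were lower in adults, with a median of -1.80, where 43% of all genes were lower. Rest, Dnmt3b, Stag2 and Setdb1 fell by 4.38, 4.60, 1.54 and 2.01, and Ctcf, whose binding brings cluster enhancers to promoters, fell by 1.69. Dnmt3b read 2.56, 2.45 and 2.23 in wild type adults, near the floor, so the size of its fall is set by values near background. None of the genes in these 5 lists was called in the mutant comparison of either stage. Arvcf, Cdhr1 and Wiz were the ones with an unadjusted p under 0.05 in adults, at 0.42, 0.80 and 0.49, and none was in embryos.

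**Figure D5:**
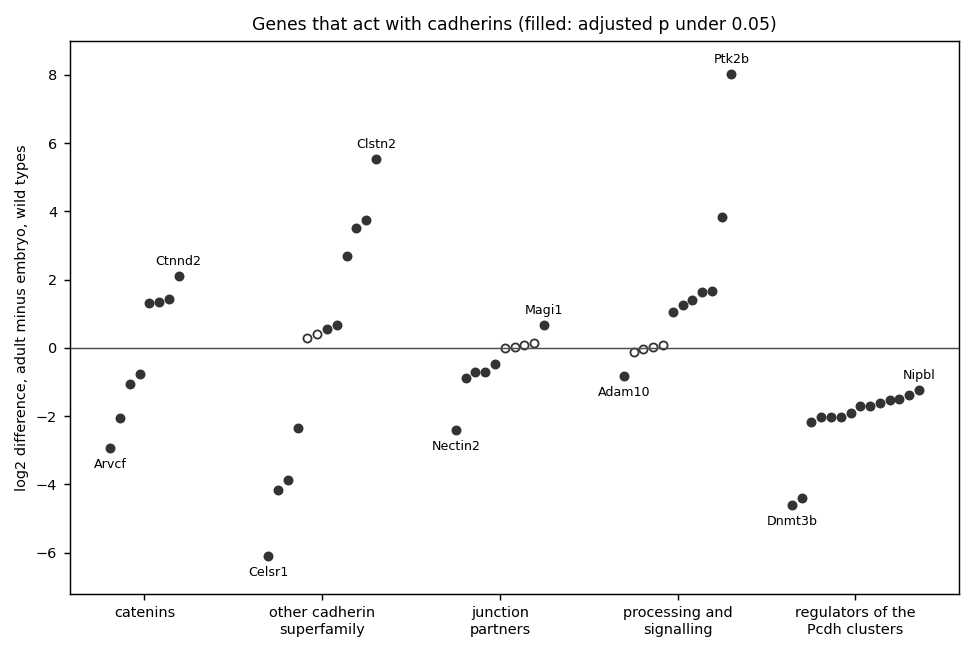
Log2 difference between wild type adult cortex and wild type E12.5 dorsal telencephalon (vertical axis) for genes that act with cadherins, 1 point per measured gene, in 5 lists. Filled points passed the test, and the lowest and highest gene of each list is named. The 14 regulators of the protocadherin clusters all lie below 0, from -4.60 (Dnmt3b) to -1.22 (Nipbl), while the other lists hold points on both sides. Ptk2b is plotted against embryonic values at the floor of the deposited table, and Dnmt3b against adult values near it. Celsr1 is plotted against adult values near the bottom of its probe set's range.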

How the data were processed

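RNA from 12 tissue samples was amplified in a pair of cycles, labelled with biotin and hybridised to Affymetrix arrays, per the labels' protocols. The authors deposited log2 values for 45101 probe sets, made with GCRMA per the submitters' processing notes, and these log2 values were used with no further scaling. The number of arrays limits the precision. Probe sets were named from the platform annotation, where 34945 have 1 gene symbol, 932 have several and 9224 are unlisted. Per gene the probe set of highest mean over 4 on at least 3 arrays was kept. Limma 3.58.1 in R 4.3.3 fitted 4 group means with 8 residual degrees of freedom, and Benjamini-Hochberg adjustment ran over all 11449 genes, with a call under 0.05. The fit was tested on simulated data.

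Same-sex adults of near age and embryos of shared parents were taken as pairs in an alternative. Deviations from group means correlated at 0.51 within the first cross and at 0.14 to 0.25 within the second. Centring each group on its mean ties the second-cross deviations to those of the first cross. These values therefore cannot show whether the crosses pair embryos. Members and lists were chosen with earlier results of these data known. Members to be given per array were those of lowest p in each mutant comparison (4) and up to 4 each way per subclass between the stages, and other lists gave up to 4 genes of lowest p, with a few more named after their values were seen. Levels of different genes were not ranked, since probe sets differ. P-values set each difference against the spread between arrays within the groups of this study. Promoters are from the RefSeq table of GRCm38.p6. Alternatives changed the threshold, probe set choice, scaling, variance model, array weights, pairing and arrays included.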

Additional observations from a re-analysis of the deposited data

How the results depend on the processing

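For the members, 36 named results were recomputed in 851 alternative values, of which 830 kept their direction and their side of the threshold, 20 kept the direction and were no longer past it, 0 newly passed it and 1 reversed. The reversal was Cdh7 between wild type stages, whose probe sets averaged to 0.23. The losses were 9 for Cdh7 and 11 for Pcdh17, and the cause was not tested. The count of members called between wild type stages ranged from 26, among the 27 over a log2 value of 5, to 32, and between mutant stages from 24 to 31. In the main fit 81.4% and 81.7% of all genes were called in these comparisons, so such counts do not set members apart. The counts of 0 members in both mutant comparisons and in their difference between stages stayed 0 in every alternative. Leaving out 1 embryo at a time, the count of members called between parental crosses ranged from 2, without the first wild type embryo, to 8. In the main fit 4.45% of all genes were called between the crosses. With age pairs and crosses as a replicate block, 32 and 29 members were called between stages in wild types and mutants and 0 by genotype, and the paired fit changed none of the 36 named results. The adult age pairs correlated at 0.19, -0.01 and 0.27, so the ages do not establish pairs. Low signal limits what can be said of the 23 genes that were not measured.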
